A study of Mus musculus with 10 samples.

Results

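Amino acid transporter genes of activated T cells were followed in CD4+CD25- T cells sorted from mouse breast tumours. The 9 genes were taken by symbol from a list of carriers known in such cells (Slc7a5, Slc3a2, Slc1a5, Slc38a1, Slc38a2, Slc7a1, Slc7a6, Slc7a11 and Slc1a4). All 9 were found among the 17363 named genes of the expression table, and all 9 passed the filter on low counts. The mice were C57BL/6, 23 weeks old, and every one carried the PyMT transgene, a viral oncogene that gives mammary tumours, and floxed Tgfbr2, the gene of a TGF-beta receptor chain. WT mice (Tgfbr2fl/flPyMT) had no Cre. KO mice (ThPOKCreTgfbr2fl/flPyMT) had in addition Cre under ThPOK, which is active in the CD4 T cell lineage. IL4-/- mice (Il4-/-Tgfbr2fl/flPyMT) lacked the type 2 cytokine gene Il4 and had no Cre, and IL4-/-KO mice (Il4-/-ThPOKCreTgfbr2fl/flPyMT) had both changes. Each genotype had 2 replicates, and the RNA of both KO replicates was made into a first and then a repeat library, which gave 10 libraries for 8 replicates. No label states that 2 replicates of a genotype are different mice, and every p-value here therefore rests on a spread that could be technical.

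A T cell that is activated takes up far more amino acids than a resting one, because it builds protein, nucleotides and membranes to grow and divide. Leucine and other large neutral amino acids enter through a heterodimer of the light chain LAT1 (Slc7a5) and the heavy chain CD98hc (Slc3a2), glutamine enters through carriers such as ASCT2 (Slc1a5), SNAT1 (Slc38a1) and SNAT2 (Slc38a2), and cystine enters through xCT (Slc7a11). Leucine and arginine inside the cell feed the mTORC1 growth pathway, and a shortage of amino acids raises many transporter genes through the transcription factor ATF4.

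Recovered reads ran from 17121030 to 18479090 in WT and the first KO libraries and from 28003231 to 33802781 in the KO repeats, IL4-/- and IL4-/-KO, so IL4-/- and WT cannot be told apart from these depth sets. The first and repeat libraries of one RNA had Pearson correlations of log2 values, across genes, of 0.905 for KO replicate 1 and 0.865 for KO replicate 2. For KO replicate 2, the repeat was unlike all other libraries: it had the fewest genes detected (12459, against 12891 to 15899), and its 10 highest genes took 6.70% of reads (4.44% to 5.84% elsewhere). Tgfbr2 was counted in every library. It had 7876 and 7894 normalized counts in WT and 5803 to 9442 in the KO libraries, which overlapped. IL4-/- had 13816 and 12544, and IL4-/-KO lay below it at 7762 and 8205. Since deletion of floxed sequence can leave the rest of the transcript, these totals check little. Il4 had 39.7 to 98.7 normalized counts in the 4 Il4-deficient libraries and 107 to 523 in the others. Core T cell markers were abundant throughout, with a summed level over the 11 of 12 genes found of 120264 to 259231 normalized counts and none at 0 in any library. Markers of other cells were present too. The summed level of 15 epithelial genes was 188331 and 23185 in WT, 75854 to 139060 in the KO libraries, 38770 and 86750 in IL4-/- and 14218 and 44646 in IL4-/-KO, and that of 14 macrophage and monocyte genes was 118599 in IL4-/- replicate 2 against 10020 to 21295 in the other libraries. Neutrophil markers (9 genes) summed to 5666 and 6284 in the first and repeat libraries of KO replicate 1 and to 109 to 883 in the others. In such bulk samples, fewer cells of a type and less RNA per cell cannot be told apart.

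The levels of the transporter genes spanned a wide range. Per kilobase of exonic sequence, and as the mean over the 8 replicates, Slc3a2 (3025 normalized counts per kilobase) and Slc1a5 (3016) were the highest, followed by Slc38a2 (1484), Slc7a5 (502), Slc38a1 (292), Slc7a6 (188), Slc7a1 (79.7), Slc1a4 (77.2) and Slc7a11 (6.17). The CD98 heavy chain was thus far above its light chains at the RNA level. Exonic length is the union of exons of protein-coding transcripts in the GENCODE annotation of mm10. The 7 genes from Slc3a2 to Slc7a1 in this order were counted in every library, with highest and lowest libraries 2.33-fold (Slc3a2) to 4.05-fold (Slc38a1) apart, whereas Slc1a4 spanned 28.6-fold and Slc7a11 was at 0 in 3 libraries.

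**Figure D1:**
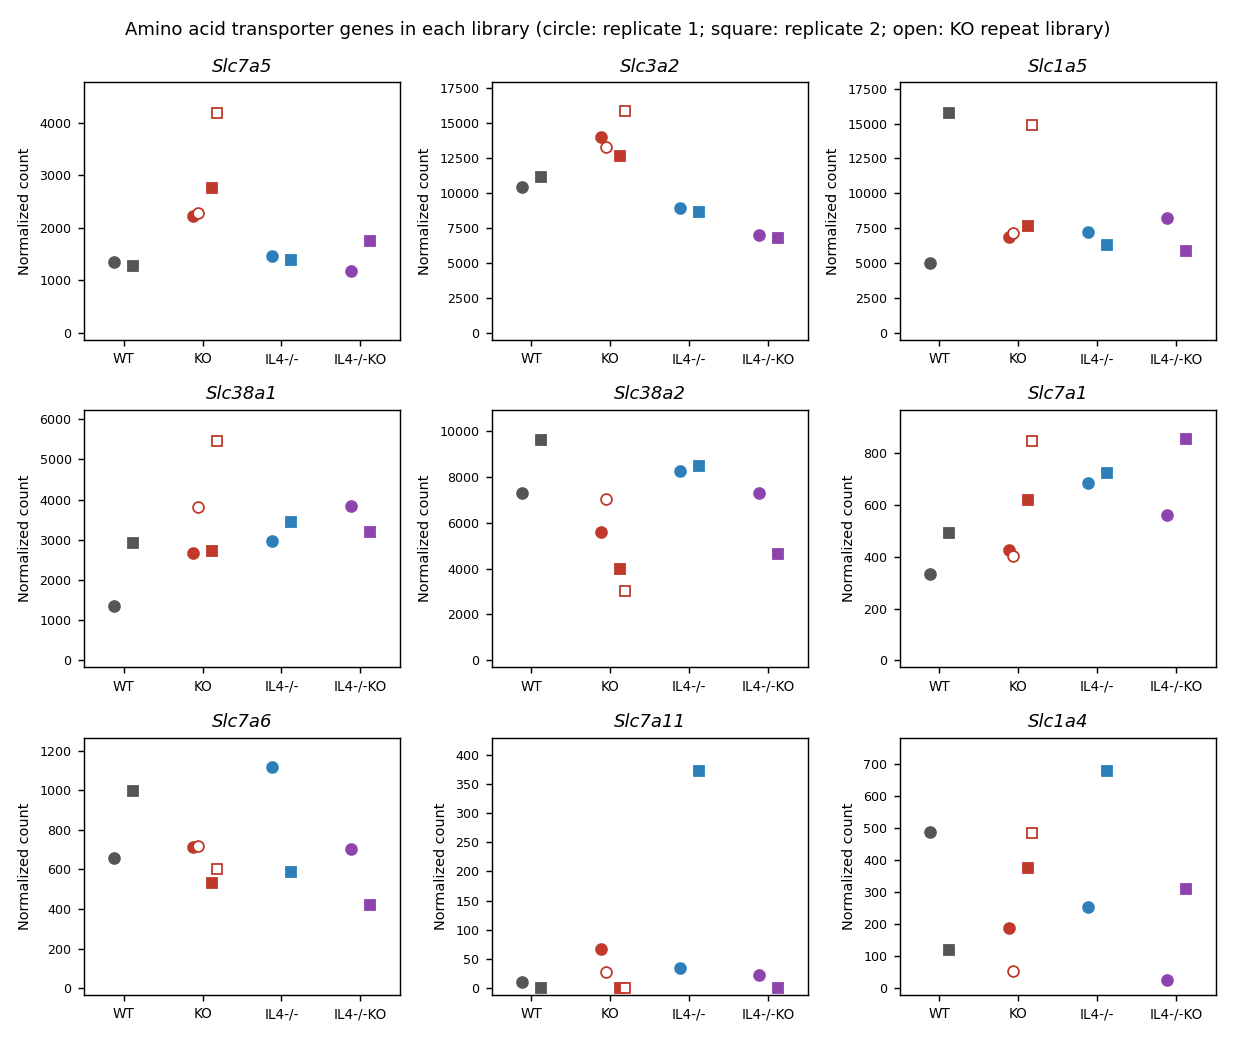
Normalized counts (vertical axis, linear) of each of the 9 genes in every library, by genotype (horizontal axis). Circles are replicate 1, squares replicate 2 and open symbols the KO repeat libraries. All 4 KO libraries lie above all other libraries for Slc7a5 (2224 to 4187) and Slc3a2 (12638 to 15833), a pattern whose share over all genes was not taken. Replicates of one genotype lie far apart for Slc1a5 in WT and for Slc7a11 and Slc1a4 in IL4-/-.

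Slc7a5 (chromosome 8, 121881150 to 121907694, mm10), the LAT1 light chain that carries leucine, had its highest levels in KO. The WT libraries held 1345 and 1278 normalized counts, the first KO libraries 2224 and 2759 and the KO repeats 2283 and 4187, while those of IL4-/- held 1464 and 1387 and those of IL4-/-KO 1186 and 1742. The 4 KO libraries were above all 6 others, IL4-/- was slightly above WT without overlap, and the IL4-/-KO replicates lay on both sides of IL4-/-. Of all genes, 10% were higher without overlap in KO against WT, and no share was taken for KO above all other libraries. The log2 fold change of KO against WT, on log2(normalized count + 1), was 1.08 ± 0.33 (SE, n = 2 replicates per genotype, 95% interval 0.30 to 1.85), which did not pass in limma after adjustment over the 14473 genes tested (adjusted p = 0.317). It was 0.92 against WT with the first KO libraries alone, which lie in the depth set of WT, and 0.93 without the repeat library of KO replicate 2, which had the highest value. Core T cell marker RNA was also higher in KO, with a summed level of 127928 and 199804 in WT and 222807 to 259231 in the KO libraries, and its part in the difference was not tested.

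On the Il4-deficient background the levels of Slc7a5 with and without the deletion overlapped. For IL4-/-KO against IL4-/- the log2 fold change was 0.01 ± 0.33 (SE, n = 2, 95% interval -0.76 to 0.79, limma adjusted p = 1). The difference between the deletion effects on the 2 backgrounds was itself tested as an interaction, and its estimate of -1.06 ± 0.47 (95% interval -2.16 to 0.03) did not pass (limma adjusted p = 0.967). IL4-/-KO lay below KO with no overlap (log2 fold change -0.94 ± 0.33, limma adjusted p = 0.33), and by -1.10 against the KO repeats alone, which share its depth set. Over both backgrounds the mean log2 fold change of Tgfbr2 deletion was 0.55 ± 0.24 (limma adjusted p = 0.478). IL4-/- against WT had 0.12 ± 0.33 (limma adjusted p = 1). The comparisons with KO share the KO samples, and their values are not separate evidence.

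Slc3a2 (chromosome 19, 8706882 to 8723369), the CD98 heavy chain that brings several light chains to the cell surface, separated the 4 genotypes without overlap. Libraries of WT held 10460 and 11126 normalized counts, the first KO libraries 14033 and 12638 and the KO repeats 13280 and 15833, while those of IL4-/- held 8940 and 8660 and those of IL4-/-KO 7020 and 6800. The order from high to low was KO, WT, IL4-/- and IL4-/-KO, and the replicates of one genotype stayed close together. No share of all genes that part the 4 genotypes without overlap was taken. Tgfbr2 deletion went with a higher level where Il4 was intact (log2 fold change 0.37 ± 0.26, SE, n = 2) and a lower one where it was missing (-0.35 ± 0.26), and limma called neither (adjusted p = 0.572 and 1). The interaction of -0.71 ± 0.37 did not pass either (limma adjusted p = 0.967). Each SE is limma's moderated one, which borrows spread from other genes. It is therefore not the scatter of the Slc3a2 replicates alone, which was small. The widest gap was that of IL4-/-KO against KO.

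The log2 fold change of Slc3a2 between IL4-/-KO and KO was -1.01 ± 0.26 (SE, n = 2, 95% interval -1.62 to -0.40). It did not pass in limma (adjusted p = 0.266) or in edgeR's quasi-likelihood test (adjusted p = 0.464) but did in DESeq2's Wald test on the recovered reads (adjusted p = 0.00369), and over all 21 alternatives its adjusted p ran from 0.00369 to 0.91. Its size was -1.07 against the KO repeats alone and -0.93 without the repeat library of KO replicate 2. Slc3a2 in IL4-/- against WT had -0.29 ± 0.26 (limma adjusted p = 1). Epithelial marker RNA was also higher in the 4 KO libraries (75854 to 139060) than in IL4-/-KO (14218 and 44646). So was core T cell marker RNA (222807 to 259231 in KO, against 195258 and 198369 in IL4-/-KO). The part of either in these differences was not tested. At most 4 of the 15 epithelial genes were at 0 in a library (from among Krt5, Csn2, Wap and Esr1). WT replicate 1, with the most epithelial marker RNA of any library (188331), had 1345 normalized counts of Slc7a5 and 10460 of Slc3a2, below every KO library. This 1 library also had less core T cell marker RNA (127928) than the KO libraries (222807 to 259231). The parts of epithelial and T cell RNA in its values were not tested.

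Because both chains of the LAT1 heterodimer were counted in the same libraries, their ratio does not depend on the size factors. Per exonic length, Slc3a2 exceeded Slc7a5 by a ratio of 8.18 and 9.16 in WT, 6.64 and 4.82 in the first and 6.12 and 3.98 in the repeat KO libraries, 6.43 and 6.57 in IL4-/-, and 6.23 and 4.11 in IL4-/-KO. The WT libraries had the highest ratios, both IL4-/-KO libraries lay below both IL4-/- libraries, and KO overlapped IL4-/- and IL4-/-KO. Across the 8 replicates the log2 values of the 2 genes correlated at 0.65 (Pearson) and 0.43 (Spearman), given as a description over replicates that share library sets.

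**Figure D2:**
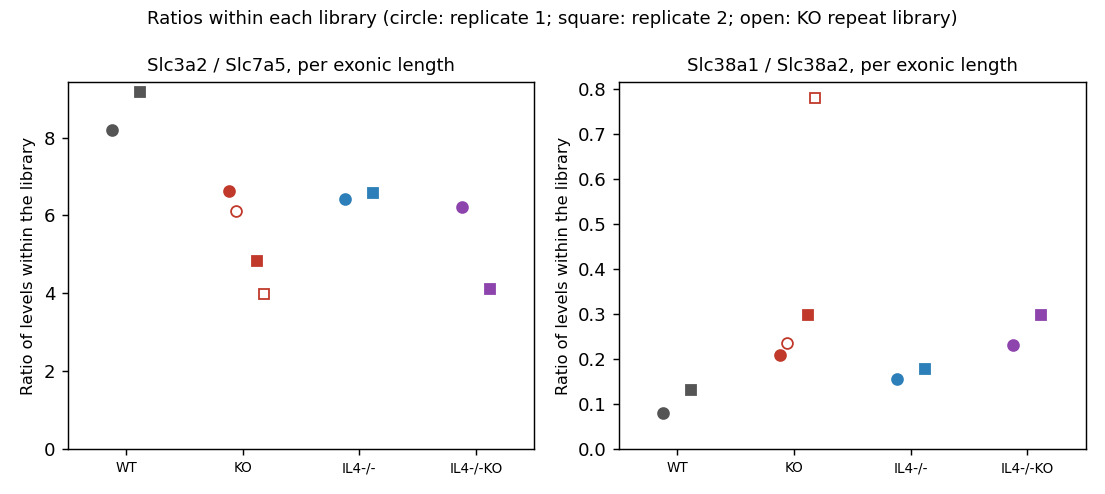
Ratio of Slc3a2 to Slc7a5 (left) and of Slc38a1 to Slc38a2 (right) within each library, both per exonic length (vertical axes, linear from 0), by genotype. The WT libraries have the highest ratios on the left (8.18 and 9.16) and the lowest on the right (0.0805 and 0.132).

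Slc7a6 (chromosome 8, 106168857 to 106198706), another light chain of CD98hc, which exchanges cationic for neutral amino acids, was lower and more even than Slc7a5. WT replicates had 657 and 998 normalized counts, the first KO libraries 712 and 533 and the KO repeats 718 and 603, while those of IL4-/- held 1118 and 589 and those of IL4-/-KO 706 and 422. Neighbours in the order IL4-/-, WT, KO and IL4-/-KO overlapped throughout. Its largest fold change among the simple comparisons, that of IL4-/-KO against IL4-/-, was -0.57 ± 0.48 on the log2 scale (limma adjusted p = 1). It was -0.11 without IL4-/- replicate 1, -1.03 without IL4-/- replicate 2, -0.94 without IL4-/-KO replicate 1 and -0.20 without IL4-/-KO replicate 2.

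Slc7a11 (chromosome 3, 49892526 to 50443614), the xCT light chain that imports cystine for glutathione, had the lowest level of the 9 genes and was at 0 or 1 read in 4 of the 10 libraries. It was measured at 10.5 and 0 normalized counts in WT, at 66.2 and 0 in the first and 27.2 and 0 in the repeat KO libraries, at 34.0 and 372 in IL4-/-, and at 22.3 and 0.722 in IL4-/-KO. Each count of 0 allows up to 3 reads, or 3.96 normalized counts in WT replicate 2 and 3.94 and 2.84 in the libraries of KO replicate 2, for counting error only, and the value of 0.722 was 1 read. The replicates of IL4-/- lay far apart, and the log2 fold changes of 5.07 ± 2.42 against WT and -4.17 ± 2.42 for IL4-/-KO against IL4-/- depend on the pseudocount and did not pass (limma adjusted p = 1 for both). IL4-/- replicate 2, with the highest Slc7a11, was also the library with the most macrophage and monocyte marker RNA (118599, with 0 of the 14 genes at 0), and the part of these cells in the value was not tested.

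Promoter windows were searched for the ATF4 composite element because several of these genes are textbook targets of ATF4. RefSeq windows on GRCm38.p6 (mm10) that run from 250 bases before to 50 after a start were at hand for 6 of the 9 genes, in 8 windows. The element, taken as TGATGNAA on either strand, was found in Slc7a11 and Slc1a4, against 3.97% of all 32851 windows of the same length. The 2 matched stretches are shown 5′ to 3′ on the gene's strand, with matches in capitals, since they belong to the 2 members whose levels varied most. In Slc7a11 (chr3:50443642-50443690, minus strand) there are 2 matches, on opposite strands. In Slc1a4 (chr11:20332699-20332728, minus strand) there is 1 match, which spans the annotated start.
Slc7a11: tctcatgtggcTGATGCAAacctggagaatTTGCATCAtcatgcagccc
Slc1a4: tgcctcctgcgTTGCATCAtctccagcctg
The E-box CACGTG, the site of Myc with Max, is in 7.15% of all windows and in none of the 8. The pattern TGACNNNGC, the core of the antioxidant element, is in 12.4% of all windows and in those of Slc38a2, Slc7a1 and Slc7a6. These matches are letters in a window, not measured binding.

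Slc1a4 (chromosome 11, 20302180 to 20332713), which carries alanine, serine and cysteine, varied mostly within genotypes. The pair from WT held 489 and 119 normalized counts, the first KO libraries 188 and 376 and the KO repeats 51.8 and 484, while those of IL4-/- held 254 and 679 and those of IL4-/-KO 23.8 and 309. Every pair of genotypes overlapped. IL4-/-KO against IL4-/- had a log2 fold change of -2.25 ± 1.36 (limma adjusted p = 1), with the highest value again in IL4-/- replicate 2. It was -0.43 without IL4-/-KO replicate 1, -4.07 without IL4-/-KO replicate 2 and -1.46 in edgeR. Across the 8 replicates the log2 values of Slc1a4 and Slc7a11 had a Pearson correlation of 0.044.

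**Figure D3:**
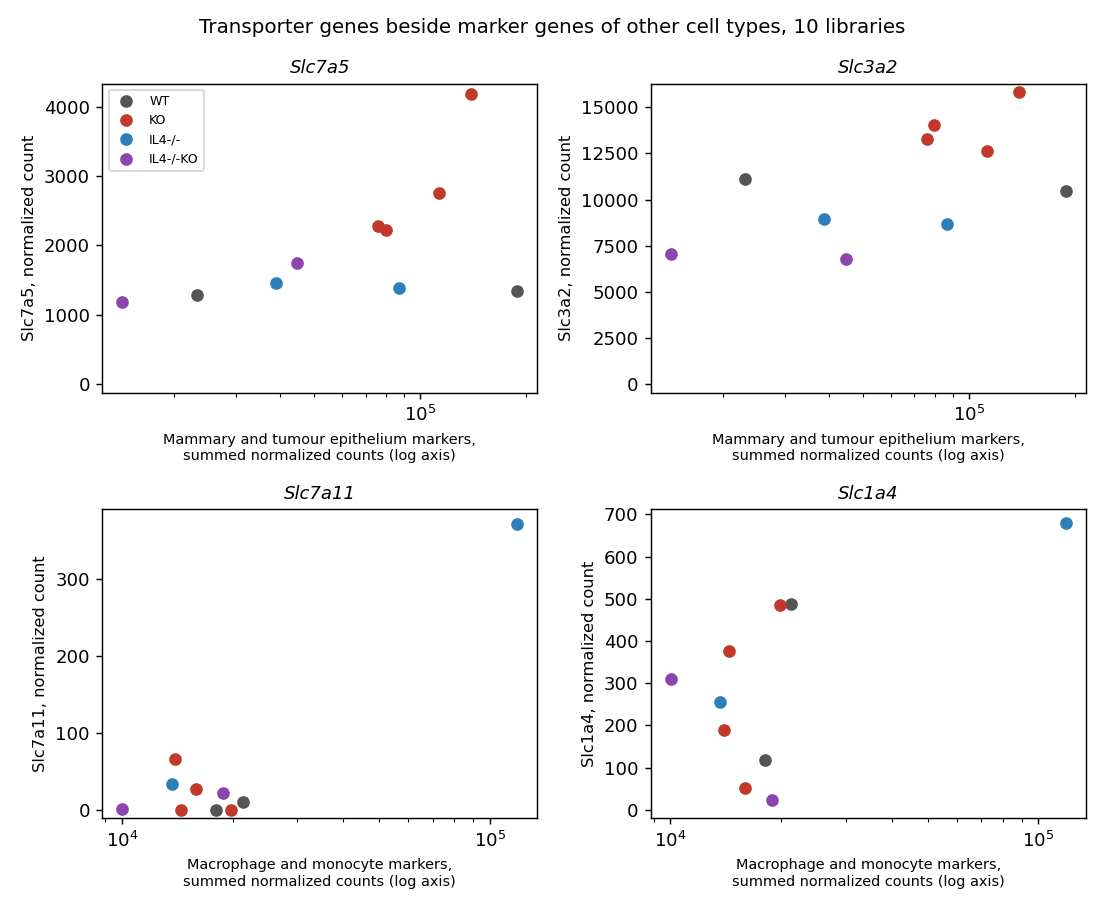
Normalized counts of Slc7a5 and Slc3a2 against the summed level of epithelial markers (top), and of Slc7a11 and Slc1a4 against that of macrophage and monocyte markers (bottom), in the 10 libraries, with log horizontal axes. WT replicate 1 has the most epithelial marker RNA (188331), with Slc7a5 at 1345. IL4-/- replicate 2 has the most macrophage marker RNA (118599) and the highest Slc7a11 (372) and Slc1a4 (679). These are single libraries, and no relation to the markers was tested.

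Slc1a5 (chromosome 7, 16781340 to 16798274), the glutamine carrier ASCT2, was abundant in all genotypes. The WT libraries held 4992 and 15781 normalized counts, the first KO libraries 6885 and 7655 and the KO repeats 7186 and 14885, while those of IL4-/- held 7236 and 6286 and those of IL4-/-KO 8258 and 5832. The WT replicates were the lowest and the highest of all libraries, so no genotype stood outside WT. KO replicate 2 gave 7655 and 14885 from one RNA. In KO against WT the log2 fold change was -0.03 ± 0.53 (limma adjusted p = 0.989), and it was -0.86 without WT replicate 1 and 0.80 without WT replicate 2. Over the 6 comparisons its log2 fold changes ran from -0.40 to 0.08, with limma adjusted p from 0.838 to 1.

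The SNAT carriers, which take up glutamine together with sodium, both lie on chromosome 15. In KO against WT the level of one was higher and that of the other lower, and neither difference passed the test. For Slc38a1 (96571418 to 96642913), the WT libraries held 1349 and 2910 normalized counts, the first KO libraries 2677 and 2716 and the KO repeats 3812 and 5461, while those of IL4-/- held 2963 and 3453 and those of IL4-/-KO 3849 and 3193. WT was the lowest genotype and WT replicate 1 the lowest library, while the other 3 genotypes overlapped. The log2 fold change against WT was 0.82 ± 0.39 in KO (limma adjusted p = 0.407) and 0.69 ± 0.39 in IL4-/- (adjusted p = 1). That of KO was 0.57 without the repeat library of KO replicate 2 and 0.44 with the first KO libraries alone. It ran from 0.27 to 1.38 when single replicates were left out. Over genes, fold changes went with exonic length, at Spearman -0.24 in KO against WT and 0.27 in IL4-/- against WT. The Spearman value was largest, at 0.30, in IL4-/-KO against KO. After removal of this trend, an alternative chosen after seeing the data, Slc38a1 had 1.69 in KO and 0.05 in IL4-/-, both against WT.

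Slc38a2 (96687392 to 96699730), the SNAT2 gene and a known target of ATF4, had its lower values where Tgfbr2 was deleted. Libraries of WT held 7275 and 9585 normalized counts, the first KO libraries 5590 and 3959 and the KO repeats 7034 and 3039, while those of IL4-/- held 8259 and 8469 and those of IL4-/-KO 7267 and 4644. The 6 libraries with the deletion were all below the 4 without it, although the nearest values, 7267 in IL4-/-KO and 7275 in WT, all but touched. Of the genes tested, 1.31% had all libraries with the deletion below all without it. The log2 fold change was -0.84 ± 0.38 in KO against WT (limma adjusted p = 0.394), -0.53 ± 0.38 in IL4-/-KO against IL4-/- (adjusted p = 1) and -0.68 ± 0.27 as the mean over both backgrounds (adjusted p = 0.452). After removal of a trend on exonic length, an alternative chosen after seeing the data, the mean was -0.26 (adjusted p = 0.854).

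Within libraries, the ratio of Slc38a1 to Slc38a2 per exonic length was 0.0805 and 0.132 in WT, 0.208 and 0.298 in the first and 0.235 and 0.78 in the repeat KO libraries, 0.156 and 0.177 in IL4-/-, and 0.23 and 0.298 in IL4-/-KO. Every library with the deletion lay above every library without it. Slc38a2 alone already parted the same libraries, so the ratio is not separate evidence. It was not tested, and no share of other gene pairs that part in this way was taken. Per exonic length, Slc38a2 was the more abundant of the pair in all 10 libraries.

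Slc7a1 (chromosome 5, 148327410 to 148399904), the arginine and lysine carrier CAT1, was among the lower members. WT replicates had 335 and 494 normalized counts, the first KO libraries 428 and 619 and the KO repeats 403 and 847, while those of IL4-/- held 687 and 723 and those of IL4-/-KO 561 and 854. IL4-/- lay above WT without overlap, with a log2 fold change of 0.79 ± 0.46 that did not pass (limma adjusted p = 1), and KO overlapped all other genotypes.

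Counted over the list, limma called 0 of the 9 genes in each of the 6 comparisons, and edgeR also called 0, while DESeq2 called 1, Slc3a2 in IL4-/-KO against KO, and 0 in the other 5. Over all genes, limma called 0.00691% in KO against WT, 0.0207% for the mean deletion effect and 0% in the other 4 comparisons. EdgeR called 0.0138% for the mean effect and 0% elsewhere. DESeq2 called 2.77% of genes in IL4-/-KO against KO, 4.03% in KO against WT, 0.359% in IL4-/-KO against IL4-/-, 0.2% in IL4-/- against WT, 0.252% for the interaction and 2.43% for the mean effect. At an unadjusted limma p under 0.05 there was 1 of 9 members in KO against WT (Slc7a5), where 13.1% of all genes were, and 2 of 9 in IL4-/-KO against KO (Slc7a5 and Slc3a2), where 12.5% were. There was 1 for the mean effect (Slc38a2; 10.5% of all genes), and 0 in IL4-/-KO against IL4-/- (3.19%), IL4-/- against WT (3.88%) and the interaction (3.77%). These shares were near the background or rest on 2 genes.

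By direction, 5 members were higher (41.8% of all genes) and 4 lower (57.8%) in KO against WT, with a median log2 fold change of 0.37, against -0.20 over all genes. In IL4-/-KO against IL4-/- 3 were higher (47.6%) and 6 lower (52.2%), with a median of -0.35 against -0.03. In IL4-/-KO against KO 2 were higher (51.8%) and 7 lower (47.6%), with a median of -0.22 against 0.05. In IL4-/- against WT 7 were higher (50.3%) and 2 lower (49.5%), with a median of 0.12 against 0.01. The interaction was above 0 for 2 (55%) and below 0 for 7 (45%), and the mean effect was above 0 for 5 (41.4%) and below 0 for 4 (58.6%). The libraries of 2 members were higher without overlap in KO than in WT (Slc7a5 and Slc3a2; 10% of all genes) and those of 1 lower (Slc38a2; 12.5%). In IL4-/-KO against IL4-/- 3 were lower without overlap (Slc3a2, Slc38a2 and Slc7a11; 16.2% of all genes) and 0 higher (16.8%), and in IL4-/-KO against KO 2 were lower (Slc7a5 and Slc3a2; 12.4%) and 0 higher (16.2%). In IL4-/- against WT 4 were higher (Slc7a5, Slc38a1, Slc7a1 and Slc7a11; 14.7%) and 1 lower (Slc3a2; 14.6%). Over both backgrounds together, 0 were higher (2.05%) and 1 lower with the deletion (Slc38a2; 1.31%).

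**Figure D4:**
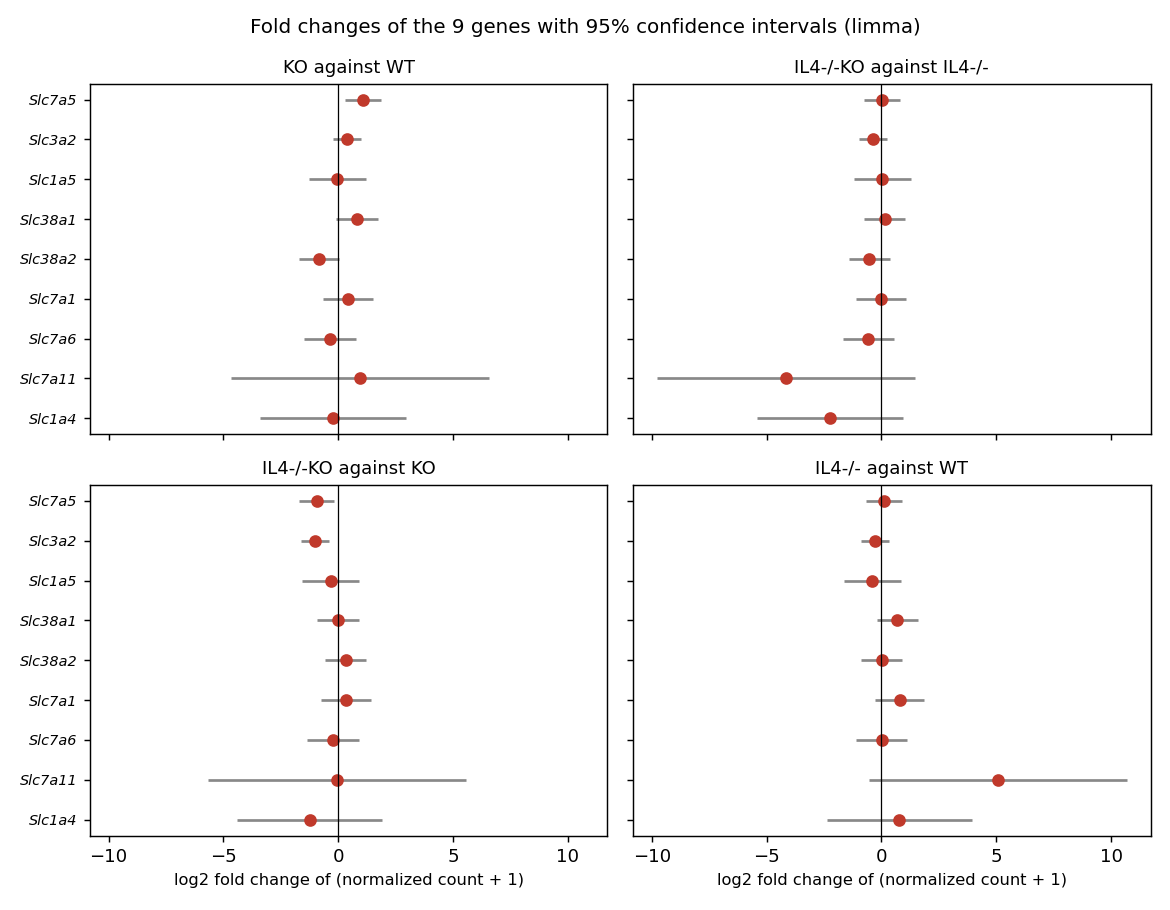
Log2 fold changes (horizontal axis, on log2(normalized count + 1)) of the 9 genes in the 4 comparisons of 2 genotypes, with unadjusted 95% confidence intervals from limma. Only the intervals of Slc7a5 in KO against WT (0.30 to 1.85) and of Slc7a5 and Slc3a2 in IL4-/-KO against KO lie clear of 0, and those of Slc7a11 and Slc1a4 are the widest.

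The genes that work with these transporters were read from 9 lists with 189 further genes, of which 169 were tested. The lists hold other membrane and lysosomal amino acid carriers, mTORC1 and its amino acid sensors, and ATF4 and amino acid shortage response genes. They also hold cytosolic tRNA synthetases, the Myc network, users of glutamine, branched chain amino acids and arginine, glutathione genes and T cell activation markers. Limma called 0 of the 169 in either direction in all 6 comparisons, and edgeR called 0. At an unadjusted limma p under 0.05 there were 31 in KO against WT (18.3%, with 13.1% over all genes), 16 higher and 15 lower. There were 9 in IL4-/-KO against IL4-/- (5.33%, with 3.19% over all genes), 21 in IL4-/-KO against KO (12.4%, with 12.5%), 23 for the mean effect (13.6%, with 10.5%), and 7 each in IL4-/- against WT (4.14%, with 3.88%) and for the interaction (4.14%, with 3.77%). DESeq2 called 8 in KO against WT (Ddit4, Nars, Vars, Odc1, Egr2, Tnfrsf4, Tnfrsf9 and Batf; 4.03% over all genes) and 5 in IL4-/-KO against KO (Ddit4, Max, Mxd1, Mga and Mki67; 2.77% over all genes). For the mean effect it also called 5 (Psat1, Nfe2l2, Tnfrsf4, Tnfrsf9 and Batf; 2.43% over all genes), and it called 0 in the other 3 comparisons.

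Odc1, which turns ornithine into polyamines, had the smallest p of its list in KO against WT. Odc1 stood at 12471 and 9326 normalized counts in WT, at 52686 and 21545 in the first and 57070 and 26045 in the repeat KO libraries, at 18221 and 17827 in IL4-/-, and at 23013 and 13729 in IL4-/-KO. The log2 fold change was 1.74 ± 0.48 (limma adjusted p = 0.308). On the list of ATF4 and amino acid shortage response genes is Ddit4, an inhibitor of mTORC1. It had 2508 and 1912 normalized counts in WT and 2544 to 5780 in the KO libraries, against 1860 and 1964 in IL4-/-KO. KO was the highest genotype for Ddit4 as it was for Slc7a5, a pattern whose share over all genes was not taken. The log2 fold change of Ddit4 was 1.04 ± 0.31 in KO against WT and -1.23 ± 0.31 in IL4-/-KO against KO (limma adjusted p = 0.317 and 0.264).

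Of the 22 ATF4 and amino acid shortage response genes, 13 were higher in KO against WT (41.8% of all genes). In IL4-/-KO against KO 20 of 22 were lower (47.6% of all genes), with a median of -0.66, against 0.05 over all genes. In IL4-/- against WT 17 of the 22 were lower (49.5% of all genes), with a median of -0.39, against 0.01. There, neither group has the deletion and the depth sets differ. At an unadjusted limma p under 0.05 there were 2, 1 and 1 of the 22 in these comparisons (13.1%, 12.5% and 3.88% of all genes). Psat1, an enzyme of serine synthesis, had 689 and 872 in IL4-/- and 1595 and 1626 in IL4-/-KO (log2 fold change 1.05 ± 0.30, limma adjusted p = 1). Of the tRNA synthetases, 19 of 20 were higher in IL4-/-KO than in IL4-/- (47.6% of all genes; median 0.22, against -0.03), with 0 at an unadjusted p under 0.05. In IL4-/- against WT, which shares the IL4-/- samples, 18 of 20 were lower (49.5% of all genes), and in KO against WT 11 of 20 were higher (41.8%). Of the other membrane carriers, 13 of 18 were lower in KO against WT (57.8% of all genes), with a median of -1.10, against -0.20. Of the 26 found, only these 18 passed the filter on low counts. The KO repeats also had the fewest genes detected of all libraries (12891 and 12459). The part of detection in this median was not tested. Only 1 of the 18 had an unadjusted limma p under 0.05 (13.1% of all genes). It was Slc16a10, an aromatic amino acid carrier with low counts. It had 42.2 and 108 normalized counts in WT and 0 to 19.7 in the KO libraries. Batf, a transcription factor induced on activation, had 1400 and 1504 in WT and 3522 to 12548 in the KO libraries (log2 fold change 2.37 ± 0.45, limma adjusted p = 0.25). The libraries of KO replicate 1 were the highest for both Batf and Odc1 and also for neutrophil markers (5666 and 6284), whose part in these values was not tested.

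The genes whose log2 values over the 8 replicates were most like those of Slc7a5, among the other 14472 tested, were Smarcd2, Gsk3a, 1700001L05Rik, Cirbp and Hnrnpl, with Pearson correlations of 0.976 to 0.983. Smarcd2, a chromatin remodelling subunit gene, had replicate means of 7348 and 8782 normalized counts in KO and 4750 to 5826 elsewhere, the same order of KO above the rest. For Slc7a11 the closest were Mmp13, Mtor, Olfm1, B430212C06Rik and Gda, at 0.898 to 0.918. With 8 points and the best of so many genes taken, such values describe these libraries only.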

How the data were processed

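RNA from the sorted CD4+CD25- T cells went through SMART-Seq v4 amplification and KAPA Hyper Prep library preparation, per the labels' protocols, without molecular identifiers. Reads were handled with bcl2fastq 2.18.0, STAR and DESeq2 on mm10, per the submitters' processing notes. The counter, its annotation and its strand setting are not given in the sources used here. The deposited signal is a normalized read count, scaled library by library. Dividing it by the value of 1 read gave whole reads for 100% of values (tolerance 0.001 reads), and 1 read was worth 0.644 to 1.47 normalized counts. Of 17370 rows, 7 without a gene name (0.0029% to 0.0205% of a library) were left out.

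Genes were kept (14473) where 2 or more of the 8 replicates reached 10 normalized counts, and tested with limma 3.58.1 in R 4.3.3 (mean-variance trend, log2(normalized count + 1), two-sided, Benjamini-Hochberg over all genes, threshold 0.05). Libraries of a KO replicate were averaged on the log2 scale, and the 4 genotypes shared one spread (4 residual degrees of freedom). Limma moderated this spread toward that of genes of like level (7.72 total degrees of freedom). Every SE and interval printed with a limma fold change is the moderated one, not the scatter of that gene's replicates alone. Recovered reads were also tested with edgeR 4.0.16 and DESeq2 1.42.0, with libraries of a KO replicate summed. The code was tested on simulated data. The members and lists were chosen with earlier results of these data known. All 9 members are named, and list genes by smallest p or as DESeq2 called them. Figures were drawn with matplotlib 3.10.9.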

Additional observations from a re-analysis of the deposited data

Results flagged for a closer look

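For Slc3a2, libraries with Tgfbr2 deletion lay on opposite sides of those without it on the 2 backgrounds. All 4 KO libraries (12638 to 15833 normalized counts) lay above both WT libraries (10460 and 11126), and both IL4-/-KO libraries (7020 and 6800) lay below both IL4-/- libraries (8940 and 8660). Of all genes, 10% were higher without overlap in KO against WT and 16.2% lower in IL4-/-KO against IL4-/-. The share of genes with both was not taken. The test of this difference, the interaction, gave -0.71 ± 0.37 on the log2 scale and did not pass (limma adjusted p = 0.967).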

How the results depend on the processing

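The count of members called was 0 under the main settings in all 6 comparisons, and it differed under 1 alternative only, DESeq2, which called 1 in IL4-/-KO against KO. Of 1116 member fold changes under alternatives, 71 had the opposite sign to the main value. Of the 22 fold changes printed with a test, 2 changed sign: Slc7a5 in IL4-/-KO against IL4-/-, which ran from -0.26 to 0.29 when single replicates were left out, and Slc1a5 in KO against WT, which ran from -0.86 to 0.80 in those fits and was 0.22 with the repeat KO libraries alone and 0.28 with the length trend removed. The fold change of Slc7a5 in KO against WT ran from 0.78 to 1.37 in those fits. Over all alternatives, those of Slc38a1 (0.27 to 1.69) and Slc38a2 (-1.27 to -0.28) in KO against WT, and of Slc38a1 in IL4-/- against WT (0.05 to 1.25), also moved widely. Members higher without overlap in KO against WT numbered 5 without WT replicate 2 in place of 2, and members lower in IL4-/-KO against IL4-/- numbered 6 without IL4-/-KO replicate 2 and 5 without IL4-/-KO replicate 1 in place of 3. Members lower numbered 3 without WT replicate 1 in place of 1, both in KO against WT and in IL4-/- against WT, and 4 without KO replicate 2 or without IL4-/-KO replicate 1 in place of 2 in IL4-/-KO against KO. Some counts of 0 or 1 became 1 or 2 without other single replicates. With a replicate left out, the groups of any gene can only separate more easily. Shares over all genes were not taken for these settings, so the higher counts say nothing particular to the members. With a replicate block, limma again called 0 members in every comparison, and the adjusted p of Slc7a5 in KO against WT was 0.44. The labels share only numbers, and deviations from genotype means of same-numbered replicates had correlations of -0.36 to 0.24. The depth limits Slc7a11, with 0 to 1 read in 4 libraries.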
